A study of Gossypium hirsutum with 24 samples.

Results

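The 4 cotton genes described here act in calcium signalling: the annexin genes AnnGh1 (LOC107905123) and Anx1 (LOC107913673), and the calcineurin B-like genes CBL1 (LOC107912199) and CBL2 (LOC107922500). They were read by all probe sets whose only gene in the array annotation is one of these 4, which gives 4 genes of the 520 that have such a probe set, and 5 probe sets of the 23973 that are no controls. CBL1 has 2 probe sets, called here the first (with the suffix _at) and the second (with the suffix _s_at), and the other genes have 1 each. A probe set with the suffix _s_at can bind transcripts of related genes, and this holds for both annexins and for the second probe set of CBL1. Whether the probe sets with the suffix _at also bind related transcripts was not checked. In the assembly Gossypium_hirsutum_v2.1 AnnGh1 lies on chromosome A05, Anx1 and CBL1 on D11 and CBL2 on D05. Of 4 genes named annexin in that annotation 2 had a probe set of their own, and of 5 genes named CBL 3 had one, the third being CBL3 (LOC107920820). AnnGh2, the fourth annexin, CBL8 and a second gene named CBL2 on A04 were not analysed here.

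Annexins are proteins that bind membrane lipids when calcium is present, and in cotton they are known as abundant proteins of the growing fibre. Calcineurin B-like proteins are calcium sensors with EF-hands, the loops that hold the ion, and they act by binding and switching on the CIPK protein kinases. In Arabidopsis CBL1 works at the plasma membrane in stress responses, while CBL2 and CBL3 sit on the vacuole membrane. Cotton fibres are single cells of the seed coat that first elongate and then lay down a thick cellulose wall.

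The plants were of the upland cotton cultivar Bikaneri Nerma (Gossypium hirsutum), in adjacent field plots. Drought was made by stopping irrigation at peak flowering and keeping rain off the drought plots, control plots were watered, and sampling began 18 to 19 days later at a soil moisture of 19.5%, which is 50% of the control value. About 20% was held from then on. RNA came from bolls at 0 and 5 dpa (days post anthesis, counted from the opening of the flower) and from ovules carrying fibre at 10 and 20 dpa, with 3 arrays for control and 3 for drought plants at each of the 4 stages. For 0 dpa the treatment label also names leaf, while the extraction label names bolls alone, so bolls are taken as the tissue of the 0 dpa values and of the changes from 0 to 5 dpa. The arrays are labelled as biological replicates, and the sources used here do not say whether they come from separate plants or plots, so p-values measure the spread between these samples.

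In the deposited log2 signals each stage is centred on its own: the median of its 6 arrays is 0 for every probe set. A value below is therefore a log2 signal relative to that median, and 0 means the middle of the stage, with the 2 middle arrays equally far above and below it. Drought minus control within a stage can be read from such values, and so can the change of that difference from stage to stage. Levels, the order of the genes by level and the course of the control plants cannot, and for the same reason the labelled tissue could not be checked by the level of its markers. A probe set was called where limma's p-value, with Benjamini-Hochberg adjustment across all 23973 probe sets, was under 0.05. The standard error (SE) beside a difference is limma's, and every group has n = 3 arrays. Alternatives scaled the arrays on Affymetrix control transcripts (poly-A spikes, or hybridisation controls) or took a 5′ minus 3′ signal as a covariate. That signal came from cotton's own control transcripts, where it is a sign of RNA integrity, or from the added poly-A spikes, where it is not.

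Drought changed much of the array, so calls of the members are read against that background. At 0 dpa, 0 of the 5 member probe sets were called, where 44.2% of all probe sets were (21.4% higher and 22.9% lower). At 5 dpa 3 were called, all lower in drought (58.2% of all probe sets were called, 24.8% higher and 33.4% lower). At 10 dpa 4 were called, 1 higher and 3 lower (60.3% called, 28.5% higher and 31.8% lower). At 20 dpa all 5 were called, 3 higher and 2 lower (60.0% called, 26.0% higher and 34.0% lower). With so few members, shares of this size do not set them apart from the array, and what follows is about the size, the direction and the course of each member.

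**Figure D1:**
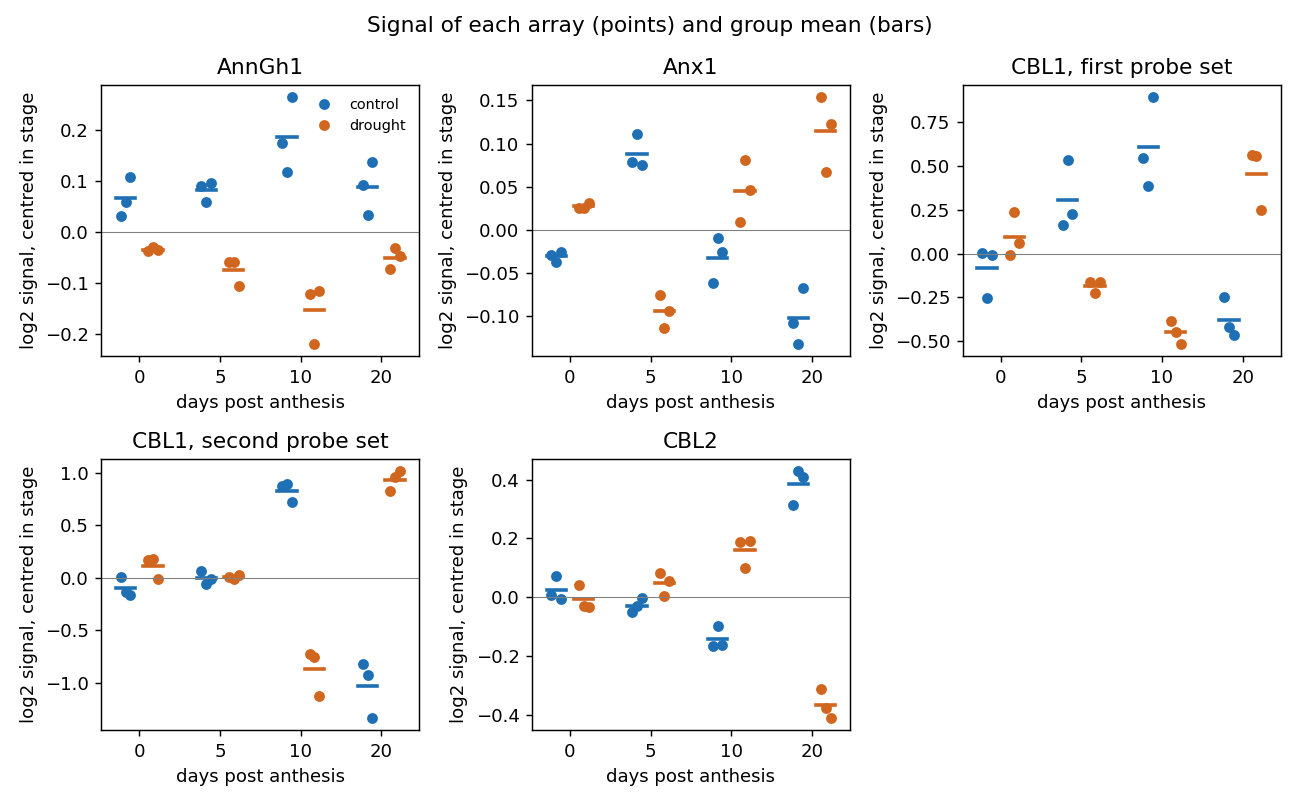
Log2 signal of each array relative to the median of its stage (y axis, a different range in each panel) by days post anthesis (x axis) for the 5 member probe sets, with points for arrays and bars for means of 3. In both CBL1 panels control lies above drought at 10 dpa and below it at 20 dpa, in CBL2 the order is the opposite, and in AnnGh1 control lies above drought at all 4 stages.

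AnnGh1, an annexin gene first known from cotton fibre, was lower in drought at 5, 10 and 20 dpa, and its differences were small. Under 12 alternatives that keep every array it was called lower in 7 at 5 dpa, 12 at 10 dpa and 6 at 20 dpa. In the control arrays of 10 dpa it measured 0.17, 0.12 and 0.26, and in the drought arrays −0.12, −0.22 and −0.12. All control arrays lay above all drought arrays, and the control array of replicate 3 was the highest. The fall was 0.34 on the log2 scale, or 1.26-fold (−0.34 ± 0.046 SE, limma adjusted p = 1.54e-06). In RNA of whole bolls or ovules, fewer cells of a type and less RNA per cell cannot be told apart.

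At 5 dpa the AnnGh1 controls measured 0.089, 0.059 and 0.096 and the drought arrays −0.059, −0.060 and −0.11. At 20 dpa the controls measured 0.091, 0.033 and 0.14 and the drought arrays −0.073, −0.033 and −0.047. The groups lay apart at both stages, with differences of −0.16 ± 0.046 (limma adjusted p = 0.00608) and −0.14 ± 0.046 (limma adjusted p = 0.0137). The 20 dpa call is lost without the control array of replicate 3, which is the highest (−0.11, limma adjusted p = 0.0668), and with scaling on array medians (−0.093, limma adjusted p = 0.0922) or quantile normalisation (−0.087, limma adjusted p = 0.122). Quantile normalisation also ends the 5 dpa call (−0.098, limma adjusted p = 0.0819). At 0 dpa the controls measured 0.031, 0.058 and 0.11 and the drought arrays −0.039, −0.031 and −0.037, which do not overlap, and the difference of −0.10 ± 0.046 missed the threshold (limma adjusted p = 0.0837). Groups that do not overlap were found at 56.6%, 67.3%, 62.8% and 62.7% of all probe sets at 0, 5, 10 and 20 dpa.

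Averaged over the 4 stages AnnGh1 was lower in drought by 0.18 ± 0.023 on the log2 scale (mean difference −0.18, limma adjusted p = 4.44e-07), and the average was −0.093 and not called with the 5′ minus 3′ signal of cotton control transcripts as a covariate (limma adjusted p = 0.24). It is one of 2 member probe sets called for that average, where 68.5% of all probe sets were. The drought effect on AnnGh1 deepened from 5 to 10 dpa by −0.18 ± 0.065 (limma adjusted p = 0.0266) and came back from 10 to 20 dpa by 0.20 ± 0.065 (limma adjusted p = 0.0117). The call of the first of these changes is lost in 5 of 24 fits that leave out 1 array, with the hybridisation controls (limma adjusted p = 0.0766) and with the 5′ minus 3′ signal of the spikes as a covariate (limma adjusted p = 0.23). That of the second is lost with all poly-A spikes (limma adjusted p = 0.215).

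Anx1, the other annexin gene, moved with the stage, down at 5 dpa and up at 20 dpa. At 5 dpa its control arrays measured 0.079, 0.11 and 0.075 and its drought arrays −0.075, −0.11 and −0.094. Every control array lay above every drought array, and the difference was −0.18 ± 0.039 (limma adjusted p = 0.000382). At 20 dpa the controls measured −0.11, −0.13 and −0.067 and the drought arrays 0.15, 0.067 and 0.12. Here every drought array lay above every control array, with a difference of 0.22 ± 0.039, or 1.16-fold (limma adjusted p = 6.42e-05). The 20 dpa call of Anx1 is lost with either 5′ minus 3′ covariate, from cotton transcripts (0.18, limma adjusted p = 0.264) or spikes (0.16, limma adjusted p = 0.23), and with the 3′ spikes (0.12, limma adjusted p = 0.112). Its 5 dpa call is lost with the 3′ spikes (limma adjusted p = 0.24) and the hybridisation controls (limma adjusted p = 0.318). With all poly-A spikes Anx1 was called lower at 20 dpa, at −0.88 (limma adjusted p = 1.85e-06). At 5 dpa it stood at 0.061 with them and was not called (limma adjusted p = 0.769).

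At 0 dpa the Anx1 controls measured −0.028, −0.037 and −0.025 and the drought arrays 0.025, 0.026 and 0.032. At 10 dpa the controls measured −0.061, −0.0092 and −0.026 and the drought arrays 0.0092, 0.081 and 0.046. Drought lay above control on all arrays of both stages, but the differences of 0.058 ± 0.039 and 0.078 ± 0.039 were not called (limma adjusted p = 0.247 and 0.0922). From 0 to 5 dpa the drought effect on Anx1 fell by 0.24 ± 0.055 (limma adjusted p = 0.000944), a call lost with the hybridisation controls and the 3′ spikes (limma adjusted p = 0.415 and 0.128). It rose by 0.26 ± 0.055 from 5 to 10 dpa (limma adjusted p = 0.000513). With all poly-A spikes and with the 3′ spikes that change was called the other way, at −1.24 and −0.68 (limma adjusted p = 2.19e-06 and 9.79e-07). From 10 to 20 dpa the drought effect on Anx1 rose by 0.14 ± 0.055 (limma adjusted p = 0.0352). That call is lost in 8 of 24 fits that leave out 1 array and with either covariate (limma adjusted p = 0.335 and 0.271). The average over the stages, 0.042 ± 0.019, was not called (limma adjusted p = 0.0593).

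**Figure D2:**
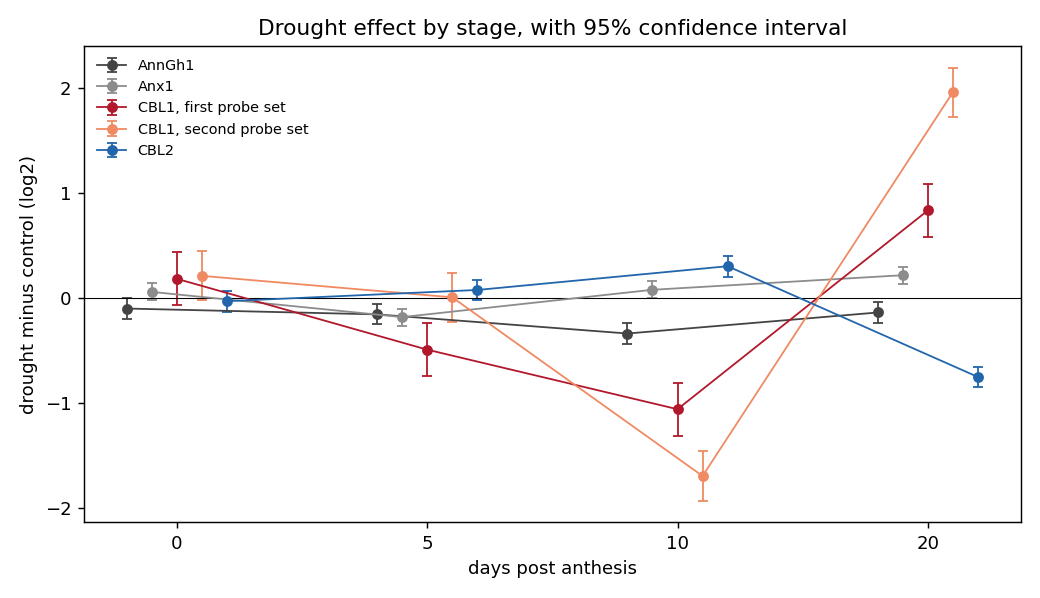
Drought minus control on the log2 scale (y axis) at each stage in days post anthesis (x axis), with 95% confidence intervals from the limma fit, 3 arrays per group. Both probe sets of CBL1 go from below 0 at 10 dpa to above 0 at 20 dpa, CBL2 goes from 0.30 to −0.75, and the annexins stay within 0.34 of 0.

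CBL1, whose Arabidopsis namesake takes part in drought and salt responses, changed most among the 4 genes and reversed its direction between 10 and 20 dpa. In its second probe set the control arrays of 10 dpa measured 0.87, 0.89 and 0.72 and the drought arrays −0.72, −0.75 and −1.12. At 20 dpa the controls measured −0.82, −0.92 and −1.33 and the drought arrays 0.82, 0.96 and 1.02. The groups lay far apart at both stages, control being high at 10 dpa and drought at 20 dpa. The second probe set was 3.24-fold lower in drought at 10 dpa (−1.69 ± 0.11, limma adjusted p = 2.26e-11) and 3.89-fold higher at 20 dpa (1.96 ± 0.11, limma adjusted p = 5.26e-12). The size of the 20 dpa difference was above that of 96.4% of all probe sets, and that of 10 dpa above 91.2%.

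The first probe set of CBL1 went the same way with smaller differences. Its control arrays of 10 dpa measured 0.55, 0.39 and 0.89 and its drought arrays −0.39, −0.45 and −0.52, so that it was 2.08-fold lower in drought (−1.06 ± 0.12, limma adjusted p = 1.25e-07). At 20 dpa the controls measured −0.25, −0.42 and −0.46 and the drought arrays 0.56, 0.56 and 0.25, a rise of 1.78-fold (0.83 ± 0.12, limma adjusted p = 4.88e-06). The groups lay apart at both stages, and the control arrays of 10 dpa spread more widely than the drought arrays. The 20 dpa call is lost with all poly-A spikes (−0.26, limma adjusted p = 0.133). It is also lost with the 5′ minus 3′ covariate from cotton transcripts (0.58, limma adjusted p = 0.28) or spikes (0.60, limma adjusted p = 0.151).

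At 5 dpa the probe sets of CBL1 disagreed. The first measured 0.16, 0.54 and 0.22 in controls and −0.16, −0.23 and −0.16 in drought. The second measured 0.069, −0.057 and −0.0073 in controls and 0.0073, −0.0073 and 0.024 in drought. Groups lay apart in the first, where drought was lower by −0.49 ± 0.12 (limma adjusted p = 0.00144, not called at −0.25 with all poly-A spikes), and overlapped in the second, at 0.0061 ± 0.11 (limma adjusted p = 0.97).

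At 0 dpa both probe sets of CBL1 overlapped between the groups. The first measured 0.0062, −0.25 and −0.0062 in controls and −0.0062, 0.24 and 0.059 in drought, with a difference of 0.18 ± 0.12 (limma adjusted p = 0.239). The second measured 0.011, −0.14 and −0.16 in controls and 0.17, 0.18 and −0.011 in drought, with 0.21 ± 0.11 (limma adjusted p = 0.139).

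The drought effect of the second probe set minus that of the first was 0.028, 0.50, −0.64 and 1.13 on the log2 scale at 0, 5, 10 and 20 dpa. At the last 3 stages the per-array differences between the probe sets did not overlap between drought and control arrays, in an exact permutation test with p = 0.1, the smallest that 3 against 3 arrays allow (two-sided). At 0 dpa they overlapped (exact permutation p = 0.9). The probe sets thus read CBL1 with unequal sizes, and the second can bind related transcripts.

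From 5 to 10 dpa the drought effect on CBL1 fell in both probe sets, at −0.57 ± 0.17 in the first (limma adjusted p = 0.00949) and −1.70 ± 0.16 in the second (limma adjusted p = 1.51e-08). From 10 to 20 dpa it rose in both, by 1.89 ± 0.17 (limma adjusted p = 4.51e-09) and by 3.65 ± 0.16 (limma adjusted p = 2.68e-14). In the second that is a 12.6-fold change of the drought to control ratio. From 0 to 5 dpa the first fell by 0.67 ± 0.17 (limma adjusted p = 0.00227, but 0.489 with all poly-A spikes), while the second stood at −0.20 ± 0.16 (limma adjusted p = 0.298). Since the fall and the rise nearly cancel, the averages over the stages were −0.13 and 0.12 and neither was called (limma adjusted p = 0.0559 and 0.064).

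CBL2, named after the Arabidopsis sensor of the vacuole membrane, went the opposite way to CBL1 at 10 and 20 dpa in the deposited values. At 10 dpa its controls measured −0.17, −0.099 and −0.16 and its drought arrays 0.19, 0.099 and 0.19. At 20 dpa the controls measured 0.31, 0.43 and 0.41 and the drought arrays −0.31, −0.38 and −0.41. Drought arrays were all above control at 10 dpa and all below it at 20 dpa. The differences were a 1.23-fold rise (0.30 ± 0.047, limma adjusted p = 9.59e-06) and a 1.68-fold fall (−0.75 ± 0.047, limma adjusted p = 2.26e-11). With all poly-A spikes and with the 3′ spikes CBL2 was called lower at 10 dpa, as CBL1 was. Its values were then −0.96 and −0.55 (limma adjusted p = 1.26e-06 and 2.6e-07). With the hybridisation controls it stood at −0.080 and was not called (limma adjusted p = 0.68).

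Earlier in boll growth CBL2 did not pass the test, though at 5 dpa it was called higher in 4 of 12 alternatives (limma adjusted p from 0.0168 with quantile normalisation to 0.0418 with array weights). At 0 dpa its controls measured 0.0067, 0.073 and −0.0067 and its drought arrays 0.042, −0.030 and −0.032, which overlap (−0.031 ± 0.047, limma adjusted p = 0.637). At 5 dpa the controls measured −0.051, −0.032 and −0.0038 and the drought arrays 0.081, 0.0038 and 0.056, which do not overlap (0.076 ± 0.047, limma adjusted p = 0.18). The drought effect on CBL2 rose by 0.23 ± 0.067 from 5 to 10 dpa (limma adjusted p = 0.00816). With all poly-A spikes and with the 3′ spikes that change was called the other way, at −1.28 and −0.72 (limma adjusted p = 4.08e-06 and 1.4e-06). The effect then fell by 1.05 ± 0.067 from 10 to 20 dpa (limma adjusted p = 1.47e-11). The latter change was −0.30 and not called with arrays scaled on the hybridisation controls (limma adjusted p = 0.243), and −0.29 with the 3′ probe sets of the poly-A spikes. From 0 to 5 dpa it changed by 0.11 ± 0.067 without a call (limma adjusted p = 0.191). The average over the stages was −0.10 ± 0.024 (limma adjusted p = 0.000723), but 0.0026 with the cotton 5′ minus 3′ covariate and not called with the hybridisation controls or the spike covariate (limma adjusted p = 0.271 and 0.551).

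All 5 member probe sets were called for a drought effect that differs among the 4 stages, by limma's F test with adjusted p from 3.07e-13 in the second probe set of CBL1 to 0.0114 in AnnGh1. That test called 76.2% of all probe sets. Of the differences between neighbouring stages, 2 member probe sets were called from 0 to 5 dpa, 5 from 5 to 10 dpa and 5 from 10 to 20 dpa. The shares of all probe sets were 53.3%, 46.6% and 59.9%.

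The difference between 2 genes on the same array is not moved by any scaling of that array, so the members were also set against each other in pairs, with the first probe set standing for CBL1. Of 6 pairs, averaged over the stages, 1 passed. The drought effect on AnnGh1 lay 0.23 below that on Anx1 (−0.23, exact permutation within stages, two-sided, p = 2e-04, adjusted over 6 pairs p = 0.0012). In that pair the per-array differences of drought and control did not overlap at 0, 10 and 20 dpa, where the drought effect on AnnGh1 minus that on Anx1 was −0.16, −0.42 and −0.35, and overlapped at 5 dpa, where it was 0.026. The other 5 pairs had adjusted p from 0.505 to 0.891 by the same exact permutation test.

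Those averages hide opposite stages. The drought effect on CBL1 minus that on CBL2 was 0.21, −0.57, −1.36 and 1.58 at 0, 5, 10 and 20 dpa. Per-array differences of CBL1 and CBL2 in drought and control arrays overlapped at 0 dpa and were apart at the other stages, where the exact permutation p was 0.1, the smallest possible. From 10 to 20 dpa the CBL1 minus CBL2 difference rose by 2.95, in an exact permutation test over 400 arrangements with p = 0.005, the smallest it can give, and p = 0.006 adjusted over 6 pairs. This test was added after the values were seen. The groups of this pair lay apart in opposite directions at 10 and 20 dpa, which fixes that p in advance, so it adds no support.

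By that test the differences between an annexin and a sensor also changed from 10 to 20 dpa, in opposite directions for CBL1 and CBL2. AnnGh1 minus CBL1 changed by −1.69, Anx1 minus CBL1 by −1.75, AnnGh1 minus CBL2 by 1.25 and Anx1 minus CBL2 by 1.19. Each had the same exact permutation p, fixed here too by groups that lay apart in opposite directions at 10 and 20 dpa. AnnGh1 minus Anx1 changed by 0.062 (exact permutation adjusted p = 0.79).

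Over the 24 arrays, whose values share the centring within stages, CBL2 correlated with the first probe set of CBL1 at r = −0.79 and with the second at r = −0.92. The probe sets of CBL1 correlated with each other at r = 0.85. AnnGh1 and Anx1 correlated at r = −0.26, AnnGh1 and CBL2 at r = −0.025, and Anx1 and CBL2 at r = −0.60. These values describe the arrays, which fall into 8 groups, and carry no p.

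**Figure D3:**
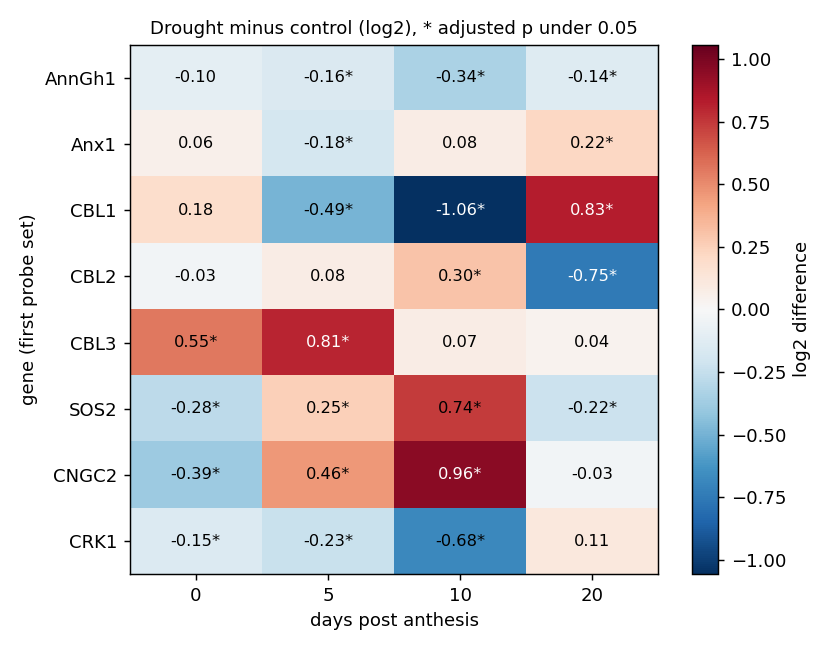
Drought minus control on the log2 scale (colour and number) for the 8 calcium signalling genes with a probe set of their own (rows, first probe set of each) at each stage in days post anthesis (columns), with a star where limma's adjusted p is under 0.05. CBL3 passes the test at 0 and 5 dpa, and SOS2 and CNGC2 go from below 0 at 0 dpa to above it at 5 and 10 dpa. Several values change sign under other scalings, among them SOS2, CNGC2 and CBL3 at 10 dpa, CRK1 at 5 dpa, and CBL3 and CRK1 at 20 dpa.

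The wider calcium signalling list had 8 genes with a probe set of their own, the 4 members and CBL3, SOS2 (LOC107962610), CNGC2 (LOC107922334) and CRK1 (LOC107934498). Over all 8, 1 rose and 3 fell at 0 dpa, 3 rose and 4 fell at 5 dpa, 3 and 3 at 10 dpa, and 2 and 3 at 20 dpa. Of all probe sets 21.4%, 24.8%, 28.5% and 26.0% were called higher at those stages and 22.9%, 33.4%, 31.8% and 34.0% lower. The list medians were −0.066, −0.040, 0.076 and 0.0037, beside medians over all probe sets of 0.0070, −0.052, −0.024 and −0.067. Among the 4 that are no members, 1 rose and 3 fell at 0 dpa, 3 rose and 1 fell at 5 dpa, 2 rose and 1 fell at 10 dpa, and 0 rose and 1 fell at 20 dpa.

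CBL3, which shares the vacuole membrane with CBL2 in Arabidopsis, rose at the early stages where CBL1 and CBL2 were not called higher. At 5 dpa its controls measured −0.40, −0.38 and −0.40 and its drought arrays 0.38, 0.44 and 0.42, far apart, a rise of 0.81 ± 0.069 (limma adjusted p = 2.24e-09). At 0 dpa CBL3 rose by 0.55 ± 0.069 (limma adjusted p = 2.09e-06), and 0.34 with adjusted p = 0.121 when arrays are scaled on all poly-A spikes. At 10 and 20 dpa it stood at 0.075 and 0.040 and its groups overlapped. Scaled on all poly-A spikes, CBL3 turned to −1.18 and −1.06 at those stages (limma adjusted p = 2.27e-08 and 2.42e-07). With the 3′ spikes it turned to −0.78 at 10 dpa (limma adjusted p = 4.76e-09).

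SOS2, a CIPK kinase that in Arabidopsis is switched on by a calcineurin B-like sensor in salt stress, stood at −0.28, 0.25, 0.74 and −0.22 at 0, 5, 10 and 20 dpa, all called. CNGC2, a channel of the cyclic nucleotide-gated family that in Arabidopsis lets calcium into the cell, stood at −0.39, 0.46 and 0.96 at the first 3 stages, all called, and at −0.033 at 20 dpa. CRK1 fell by 0.15, 0.23 and 0.68 at the first 3 stages and stood at 0.11 at 20 dpa. Scaled on all poly-A spikes, SOS2 turned to −0.52 and CNGC2 to −0.30 at 10 dpa, and CRK1 to 0.0087 at 5 dpa and −0.99 at 20 dpa. Scaled on the hybridisation controls, SOS2 was called at no stage (limma adjusted p = 0.296, 0.352, 0.0536 and 0.477) and turned to 0.15 at 20 dpa. The SOS2 call at 20 dpa was also lost with either covariate (limma adjusted p = 0.171 and 0.194). With the 3′ spikes SOS2 turned to −0.12 and CNGC2 stood at 0.10 at 10 dpa, neither called (limma adjusted p = 0.0819 and 0.277). Calls of CNGC2 at 0 dpa and CRK1 at 0 and 5 dpa were lost with the hybridisation controls (limma adjusted p = 0.113, 0.662 and 0.205).

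The genes whose 24 array values were most like those of each member, among 245 genes with an informative name, were found by Pearson's r. Actin genes came close to AnnGh1, with ACT4 (LOC107890338) at r = 0.95 and ACT7 (LOC107959435) at 0.94, as did a peroxidase gene (LOC107905931) at 0.95. Their drought effects at 10 dpa, −0.81, −1.03 and −1.10, were larger than that of AnnGh1. The first probe set of CBL1 was most like the translation elongation factor gene EF1A1 (LOC107933680, r = 0.92), the sterol methyltransferase gene SMT2-2 (LOC107905551, r = 0.92) and the fasciclin-like arabinogalactan protein gene FLA11 (LOC107922285, r = 0.91).

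SMT2-2 and FLA11 stood at −3.40 and −2.02 at 10 dpa and at 1.98 and 1.26 at 20 dpa, the same turn as the first probe set of CBL1 (−1.06 and 0.83) at a larger size. EF1A1 had that turn at a smaller size, with −0.31 at 10 dpa and 0.25 at 20 dpa. CBL2 was most like BNLGHi8377 (LOC107917909, r = 0.96), COL5-D (LOC107906795, r = 0.96) and SKD1 (LOC107959372, r = 0.94). In that order they stood at 0.45, 0.60 and 0.059 at 10 dpa and at −1.28, −0.94 and −0.35 at 20 dpa. The nearest genes to Anx1 were less alike, with AT1 (LOC107924108) at r = 0.74, SERK1 (LOC107889821) at 0.73 and FLA7 (LOC107942443) at 0.71.

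Fibre genes moved in the same samples as the members. Of 7 listed fibre genes, among them expansin and lipid transfer protein genes, 1 rose and 0 fell at 0 dpa and 1 rose and 5 fell at 5 dpa. At 10 dpa 0 rose and 5 fell, and at 20 dpa 1 rose and 6 fell. Of all probe sets 21.4%, 24.8%, 28.5% and 26.0% were called higher at those stages and 22.9%, 33.4%, 31.8% and 34.0% lower. The mean signal of the fibre genes per array ran from 0.72 to 0.76 in controls and from −0.78 to −0.69 in drought at 10 dpa. At 20 dpa it ran from 0.34 to 0.38 in controls and from −0.41 to −0.38 in drought. It was lower in drought at both stages, as was AnnGh1, while CBL1 fell at 10 dpa and rose at 20 dpa, CBL2 rose and then fell, and Anx1 rose at 20 dpa. Of other tissues, the leaf gene RCA1 stood at 0.37, −3.46, −0.30 and −0.85 at 0, 5, 10 and 20 dpa, the pollen and anther gene G9 at 7.95 at 0 dpa, and of 2 seed storage genes 1 fell at 20 dpa, to −1.81, while the other stood at −0.15 and was not called. The part of these tissues in the members' differences was not tested.

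**Figure D4:**
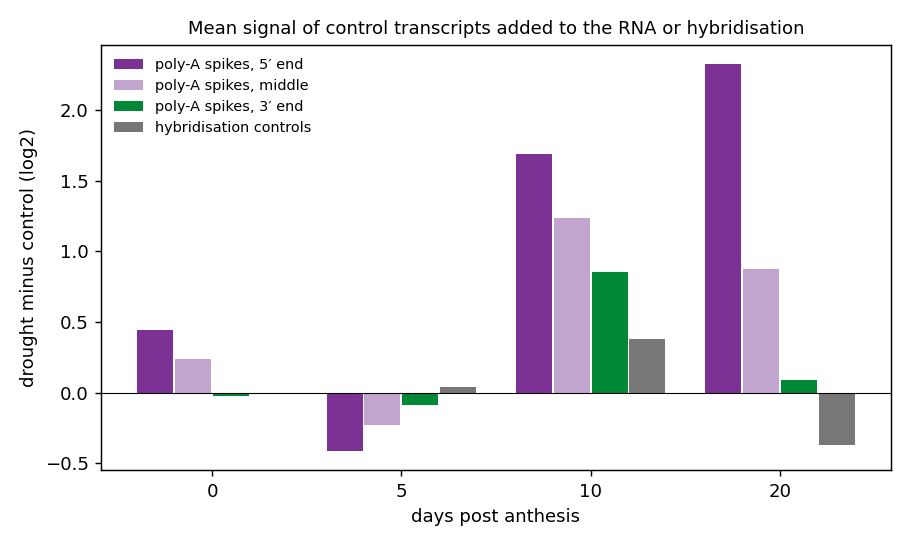
Mean log2 signal of added control transcripts, drought minus control arrays (y axis), at each stage in days post anthesis (x axis), with bars for 12 poly-A spike probe sets at each of the 5′ end, the middle and the 3′ end, and for 27 hybridisation controls. The 5′ bars reach 1.69 at 10 dpa and 2.32 at 20 dpa, and the 3′ bar stands at 0.86 at 10 dpa and 0.092 at 20 dpa.

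Signals of the Affymetrix control transcripts differed between drought and control arrays, so several scalings of the arrays were compared. The 36 probe sets of poly-A spikes, bacterial transcripts that the standard protocol adds to the RNA before labelling, stood at 0.22, −0.24, 1.26 and 1.10, drought minus control, at 0, 5, 10 and 20 dpa. Of these, the probe sets at the 3′ end stood at −0.025, −0.086, 0.86 and 0.092. The hybridisation controls, which that protocol adds after labelling, stood at −0.0017, 0.040, 0.38 and −0.37, and their groups lay apart at 10 dpa alone of the 4 stages. The 5′ minus 3′ signal of cotton's own control transcripts was higher in drought at every stage, by 0.93, 0.54, 0.59 and 2.16. In the added poly-A spikes the same signal stood at 0.47, −0.33, 0.83 and 2.23, drought minus control. The cause of these differences was not tested.

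**Figure D5:**
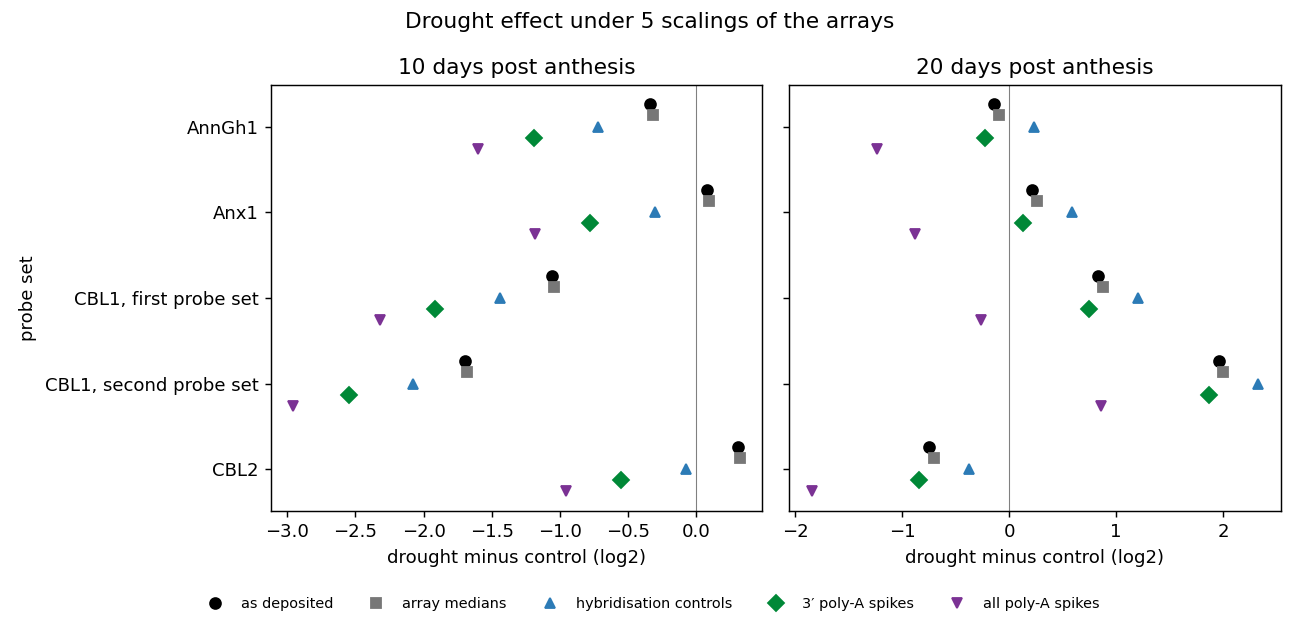
Drought minus control on the log2 scale (x axis) of the 5 member probe sets (y axis) at 10 and 20 days post anthesis, as deposited and with arrays scaled on 4 other references (symbols). Both probe sets of CBL1 stay below 0 at 10 dpa and the second stays above 0 at 20 dpa, while CBL2 and Anx1 at 10 dpa change sign.

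Scaling the arrays on such a reference moves every probe set of a stage by the same amount, including the median of all probe sets. The second probe set of CBL1 stayed lower at 10 dpa and higher at 20 dpa under all 12 alternatives that keep every array, from −2.95 to −1.68 and from 0.86 to 2.33, and was called in each. The first stayed lower at 10 dpa, from −2.32 to −1.03, and at 20 dpa ran from −0.26 with all poly-A spikes, 0.74 with their 3′ probe sets, to 1.20 with the hybridisation controls. With the 5′ minus 3′ signal of cotton's own transcripts as a covariate it was 0.58 at 20 dpa and no longer called (limma adjusted p = 0.28). With that of the spikes it was 0.60 and not called either (limma adjusted p = 0.151).

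CBL2 stayed lower at 20 dpa in all 12, from −1.85 to −0.38, and was called in 11, the exception being the hybridisation controls (limma adjusted p = 0.0542). Its rise at 10 dpa turned to −0.96 with all poly-A spikes, −0.55 with the 3′ ones and −0.080 with the hybridisation controls. With either set of spikes CBL2 was called lower there (limma adjusted p = 1.26e-06 and 2.6e-07). AnnGh1 stayed lower at 10 dpa in all 12, from −1.60 to −0.29, and was called in each. Its smaller falls turned to 0.087 at 5 dpa with all poly-A spikes, and at 20 dpa to 0.23 with the hybridisation controls and 0.046 with the cotton 5′ minus 3′ covariate. The differences of Anx1 turned with all poly-A spikes to 0.061 at 5 dpa and −0.88 at 20 dpa, where it was called lower (limma adjusted p = 1.85e-06). The gap between AnnGh1 and Anx1 and that between CBL1 and CBL2 are free of scaling, but were not tested with the 5′ minus 3′ covariates. With the cotton covariate the averages over the stages were −0.093 in AnnGh1 and 0.026 in Anx1, beside −0.18 and 0.042 without it.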

How the data were processed

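The authors used RMA (version not stated) for the deposited log2 values, per the submitters' processing notes, and the unit log2 is taken from that method. The table holds 24132 probe sets by 24 arrays, and the median of each probe set over the 6 arrays of a stage was 0 to within 5e-07, a centring that is not stated. Planned levels and comparisons between control stages could not be computed, nor a signal over background, and the precision is limited by the number of arrays.

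Control and rRNA probe sets (159) were left out. Group means were fitted to all 24 arrays with limma 3.58.1 (lmFit and eBayes, R 4.3.3), which leaves 16 residual degrees of freedom for 8 groups. Tests were two-sided, with Benjamini-Hochberg adjustment across 23973 probe sets. The fit was tested on simulated data. Pairs of genes were compared by exact permutation of arrays within stages.

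The members and lists were chosen with earlier results of these data known. Where a gene had several probe sets, all are given, and the first is the sense one least prone to cross-hybridise. Named genes are the members, all calcium signalling genes with a probe set of their own, and the 3 genes most like each member. Of 743 annotated probe sets 697 had 1 gene and 46 several; all 520 genes were found in the RefSeq table, 246 with a synonym. The xylem list had 0 genes. No sequences were used here.

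Replicate numbers did not pair the arrays: 1 of 12 same-numbered pairs of deviations correlated above 0.1 (r from −0.10 to 0.11). Replicate arrays differed with an SD over probe sets of 0.140 to 0.285. Alternatives were other scalings, quantile normalisation within stages, own fits per stage, robust eBayes, array weights and a replicate block. Others took the cotton 5′ minus 3′ signal as a covariate, kept annotated probe sets only, or left out each array. Scaling on the 3′ spikes and the covariate from the spikes were added after seeing the data.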

Additional observations from a re-analysis of the deposited data

Results flagged for a closer look

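The drought effect changed between neighbouring stages, by limma's test of the difference itself, in 12 cases among the member probe sets. From 0 to 5 dpa it changed by −0.24 in Anx1 and by −0.67 in the first probe set of CBL1. From 5 to 10 dpa it changed by −0.18 in AnnGh1, 0.26 in Anx1, −0.57 in the first and −1.70 in the second probe set of CBL1 and 0.23 in CBL2. From 10 to 20 dpa it changed by 0.20 in AnnGh1, 0.14 in Anx1, 1.89 in the first and 3.65 in the second probe set of CBL1 and −1.05 in CBL2. Of all probe sets 53.3%, 46.6% and 59.9% were called for these changes, in the same order. With so few members the count does not set them apart from the array. The changes of Anx1 and CBL2 from 5 to 10 dpa were called the other way with all poly-A spikes (−1.24 and −1.28) and with the 3′ spikes (−0.68 and −0.72). Several other calls are lost under other settings, as given above. The tissue also changes between 5 and 10 dpa, from bolls to ovules with fibre, and this cannot be told apart from the stage. The highest and lowest of 3 arrays were not tested as outliers, since groups of 3 are too small for that.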

How the results depend on the processing

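Values below are log2 differences, and the cause of each change was not tested. Scaling on all poly-A spikes turned AnnGh1 to 0.087 at 5 dpa and 0.41 from 0 to 5 dpa. Under it Anx1 turned to −0.16, 0.061, −1.18 and −0.88 at 0, 5, 10 and 20 dpa, to 0.22 from 0 to 5 dpa, −1.24 from 5 to 10 dpa and −0.54 on average. The first probe set of CBL1 turned to −0.037 at 0 and −0.26 at 20 dpa, the second to −0.0093 at 0 dpa, 0.26 from 0 to 5 dpa and −0.46 on average, and CBL2 to −0.96 at 10 dpa and −1.28 from 5 to 10 dpa. With the 3′ spikes AnnGh1 turned to 0.0051 from 0 to 5 dpa, Anx1 to −0.78 at 10 dpa, −0.68 from 5 to 10 dpa and −0.17 on average, the second probe set of CBL1 to −0.089 on average, and CBL2 to −0.55 at 10 dpa and −0.72 from 5 to 10 dpa. With the hybridisation controls AnnGh1 turned to 0.23 at 20 dpa, Anx1 to −0.30 at 10 dpa and −0.082 from 5 to 10 dpa, the second probe set of CBL1 to −0.034 at 5 dpa, and CBL2 to −0.080 at 10 dpa and −0.12 from 5 to 10 dpa. With the cotton 5′ minus 3′ covariate AnnGh1 turned to 0.046 at 20 dpa, the second probe set of CBL1 to −0.075 at 0 dpa, −0.16 at 5 dpa and −0.20 on average, and CBL2 to 0.061 at 0 dpa and 0.0026 on average. With the spike covariate the second probe set of CBL1 turned to −0.024 on average and CBL2 to 0.010 at 0 dpa. Quantile normalisation turned AnnGh1 to 0.0077 from 0 to 5 dpa, and array weights the second probe set of CBL1 to −0.0084 at 5 dpa.

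Called member probe sets numbered 0 at 5 dpa, 1 from 0 to 5 dpa, 3 from 10 to 20 dpa and 5 on average with all poly-A spikes. With the hybridisation controls they numbered 1 at 5 dpa, 3 at 20 dpa, 1 from 0 to 5 dpa, 2 from 5 to 10 dpa and 1 on average. With the 3′ spikes they numbered 1 at 5 dpa, 1 from 0 to 5 dpa and 4 on average. With the cotton covariate they numbered 2 at 20 dpa and 0 on average, with the spike covariate 2 and 1, with array medians 4 on average, and among annotated probe sets only, 1 at 0 dpa and 4 on average. Of the 8 calcium signalling genes 2 and 3 were called at 0 and 5 dpa with all poly-A spikes and 1 and 3 with the hybridisation controls. With the 3′ spikes 4 were called at 5 dpa, and with either covariate 1 at 20 dpa. The shares of all probe sets called under these alternatives are not given here, so the counts do not set these genes apart from the array.

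The average over stages of a pair rests on single stages. Without 0 dpa AnnGh1 minus CBL1 turned to 0.028. Without 5 dpa CBL1 minus CBL2 turned to 0.15. Without 10 dpa AnnGh1 minus CBL2 turned to 0.10, Anx1 minus CBL1 to −0.14 and CBL1 minus CBL2 to 0.41. Without 20 dpa AnnGh1 minus CBL1 turned to 0.26 and Anx1 minus CBL2 to −0.13, and 5 of 6 pairs passed. Leaving out each of the 24 arrays gave −0.023 to 0.040 for the second probe set of CBL1 at 5 dpa, −0.066 to 0.0056 for CBL1 minus CBL2, and 2 to 4 member probe sets called on average. The replicate block ended the calls of AnnGh1 from 5 to 10 dpa (−0.18, limma adjusted p = 0.0555) and Anx1 from 10 to 20 dpa (0.14, limma adjusted p = 0.0902) and no other member call.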
